A study of Mus musculus with 383 samples.

Results

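Among 383 single nuclei sorted from the mouse vagal motor nucleus, 62 carried the receptor gene Cckar without any read of Cck, the gene of its ligand. Cckar encodes the type A receptor for cholecystokinin. The nuclei were chosen by their counts. A nucleus had to have at least 500000 reads, at least 1000 genes with a read, a read of Chat or Slc5a7, a read of Tbx20 and no read of Cck, and it counted as Cckar-positive at a Cckar level of 5 CPM or more, where CPM is the gene's reads scaled to 1000000 reads of the nucleus. Of the 383 nuclei, 265 passed the limits on reads, genes, Chat or Slc5a7 and Tbx20, and 244 of those had no Cck read. Beside the 62 positive nuclei, 16 of the 244 had Cckar reads below the limit and were set aside, and 166 had no Cckar read. These 166, called Cckar-zero here, are the comparison class. A further 16 nuclei with Cck at 5 CPM or more, called Cck-expressing, are given beside them.

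All nuclei came from 12-week-old male Chat-IRES-Cre mice on a C57BL/6 background, in which Cre recombinase is made in cells that use the choline acetyltransferase gene. The mice were injected at 10 weeks of age with 100 nL of AAV9-DIO-H2b-mCherry, a Cre-dependent virus that marks nuclei red, and tissue was taken 16 days later. Injected Cre mice were the source of every class of nuclei, so the classes share the genotype and the virus. The tissue was pooled and the labels name no animal, so the series counts as 1 sample: no test between nuclei was made, genes were called by limits of size, and intervals cover counting error only.

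Cholecystokinin is a peptide of gut endocrine cells and of neurons. Its type A receptor acts through Gq proteins and phospholipase C, which release calcium from internal stores, and it is known for the satiety and pancreatic actions of the peptide and for its presence on vagal sensory neurons. The dorsal motor nucleus holds the parasympathetic motor neurons that leave the brainstem in the vagus nerve for the stomach, intestine, pancreas and other organs. They release acetylcholine onto ganglion neurons in the wall of those organs.

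Cckar (chromosome 5, 53697776 to 53707705, minus strand, GRCm38) was graded among the 62 nuclei. Its level ran from 5.54 CPM through a median of 99.9 CPM to 352.0 CPM. At least 100 CPM was reached by 31 nuclei, and 10 nuclei lay under 20 CPM. Near the limit, the lowest nuclei inside it had 5.54, 5.75 and 6.42 CPM, and the highest outside it had 4.98, 3.15 and 2.09 CPM. These values chose the nuclei and are given as a description. In the 16 Cck-expressing nuclei, which were chosen without regard to Cckar, 11 had a Cckar read (68.8%, exact binomial 95% interval 41.3 to 89.0), with a median of 147 CPM over the 16.

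The label of vagal motor nuclei was checked against markers that the rule did not use. Adcyap1, the gene of the peptide PACAP, was found in 98.4% of positive and 88.6% of Cckar-zero nuclei. Of the 7 markers listed for visceral motor neurons, which include Tbx20 of the rule, the median share was 96.8% in positive and 88.6% in Cckar-zero nuclei. Phox2a was the rarest of them, at 24.2% and 20.5%. Slc18a3, which loads acetylcholine into vesicles, was found in 98.4% and 95.8%. It lies inside Chat, which the rule used, so it is not an independent marker. Of 9 markers listed for somatic motor neurons, 2, the transcription factor gene Mnx1 and the peptide gene Calca, were found in 0 of 62 positive nuclei, which allows a share of up to 4.84%. The other markers of that list were not at 0: Lhx4 was found in 21.0% of positive and 18.1% of Cckar-zero nuclei, Kcna1 in 19.4% and 15.7%, Scn4b in 16.1% and 14.5%, and Prph, a filament gene shared by both kinds of motor neuron, in 95.2% and 91.0%. The median share over the list was 6.45% in positive and 8.43% in Cckar-zero nuclei. Among markers of other cells the median shares in positive and Cckar-zero nuclei were 11.3% and 15.1% for oligodendrocytes, 17.7% and 19.3% for astrocytes, 6.45% and 10.2% for microglia, 16.1% and 10.8% for glutamatergic neurons and 15.3% and 11.7% for inhibitory neurons. No marker of these lists passed a limit.

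Depth was close in the classes. The positive nuclei had a median of 1396686.5 reads, with a range of 532391 to 3502672, and the Cckar-zero nuclei 1481441.5, with a range of 555586 to 4699420. Each nucleus was thinned to 500000 reads before shares were taken, and the median nucleus then held 10523.5 genes among positive, 9967.5 among Cck-expressing and 10179.5 among Cckar-zero nuclei. The median share of mitochondrial reads was 0.0943% in positive and 0.0784% in Cckar-zero nuclei. Some columns were not independent: 9 pairs of consecutively numbered nuclei had profiles correlated above 0.95, against a median of 0.605 over all pairs. Of these pairs 1 held 2 positive and 6 held 2 Cckar-zero nuclei. Without the shallower column of each pair, 61 positive and 160 Cckar-zero nuclei were left, and no named gene's difference in share moved by more than 1.41 percentage points. Without all 26 nuclei that correlated above 0.8 with another, 56 and 153 were left, and the largest move was 4.70 points.

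Genes were first compared by the share of nuclei in which a read was found after thinning. A gene was called where the share of nuclei with a read differed by at least 30 percentage points and the mean CPM by at least 2-fold in the same direction. Of 18180 genes considered, 18 were higher in the positive nuclei (0.099%) and 2 were lower (0.011%). With all reads kept, the counts were 10 and 1, so the calls depend on depth and a share is not presence or absence. Leaving out the nuclei numbered 1 to 96 raised the count of higher genes to 28, which held all 18. The count of 2 lower genes is small and came to 3 to 5 when any of the 4 stretches of nucleus numbers was left out. Of 80 comparisons of the 20 genes within the 4 stretches, 79 had the same direction as the whole. The exception was Sctr in the nuclei numbered 97 to 192, where it was found in 27.8% of 18 positive and 28.6% of 42 Cckar-zero nuclei; without that stretch its difference in share was 50.0 points. The 20 genes were chosen for a wide difference over these same nuclei, so a shared direction within the stretches is no independent support. The plot of all genes by share shows the 20 beyond the dotted limits.

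**Figure D1:**
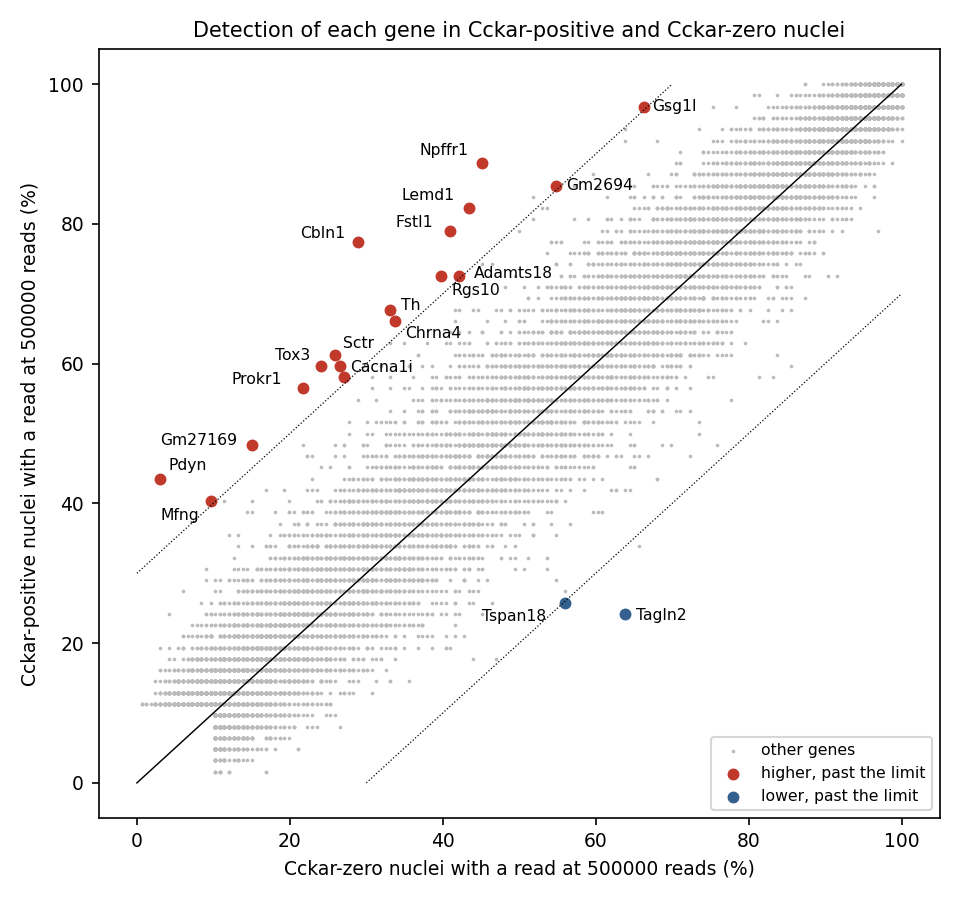
Share of nuclei with at least 1 read of each of 18180 genes after thinning to 500000 reads, in Cckar-positive nuclei (y axis, %, n = 62) and Cckar-zero nuclei (x axis, %, n = 166). The solid line marks equal shares and the dotted lines a difference of 30 percentage points. Red points are the 18 genes higher in the positive nuclei, with Pdyn near the left edge at 43.5% against 3.01%, and blue points are Tagln2 and Tspan18, which were lower.

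Receptors for other peptides were among the 18. Npffr1, a receptor for RFamide peptides that acts through inhibitory G proteins, was found in 88.7% of positive nuclei (78.1 to 95.3), against 45.2% of Cckar-zero nuclei (37.5 to 53.1). Its level in positive nuclei ran from 0 through a median of 75.6 to 315 CPM, against 0 through 0.613 to 355 CPM in Cckar-zero nuclei, and the means of 81.6 and 24.4 CPM differed 3.34-fold. The ranges of the classes overlapped, and most positive nuclei lay above the median of the other class. Sctr, the receptor for secretin, another duodenal peptide, which acts through Gs proteins, was found in 61.3% (48.1 to 73.4) against 25.9% (19.4 to 33.3), with means of 60.7 and 6.14 CPM. Prokr1, a prokineticin receptor, was found in 56.5% (43.3 to 69.0) against 21.7% (15.7 to 28.7), with means 3.21-fold apart. Of 46 peptide receptor genes considered, Npffr1 was the 1 higher gene by either limit, and Ghr, the growth hormone receptor, the 1 lower gene, by level. Sctr and Prokr1 were not on that list. The median difference in share over the 46 was 3.18 points, against 1.07 over all genes considered. Of the 46, 5 could be compared by level. Of all genes, 0.099% were higher by share, and of those compared by level 0.515% were lower. The second cholecystokinin receptor gene, Cckbr, passed no limit, at 43.5% of positive, 31.3% of Cck-expressing and 35.5% of Cckar-zero nuclei, and Npy2r, a receptor for peptide YY, passed none at 58.1% and 62.0%.

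Pdyn, the gene of prodynorphin, from which the kappa opioid peptides are cut, had the largest fold of the 18. Reads of it were found in 28 of 62 positive nuclei (45.2%, 32.5 to 58.3), 1 of 16 Cck-expressing and 7 of 166 Cckar-zero nuclei. In the 28 its median was 207 CPM and its maximum 854 CPM, while the maximum over Cckar-zero nuclei was 57.3 CPM. Means over the whole classes were 112 and 0.58 CPM, a 193-fold difference. Of the 40 Cck-negative nuclei with a Pdyn read, 28 were Cckar-positive (70.0%, 53.5 to 83.4), 5 had Cckar below the limit and 7 had none.

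Cbln1, a secreted protein that links neurexins to delta glutamate receptors across synapses, was found in 77.4% of positive (65.0 to 87.1) and 28.9% of Cckar-zero nuclei (22.2 to 36.4), the widest difference of the 18. Means were 45.9 and 10.2 CPM. Of 30 neuropeptide and related genes considered, Cbln1 and Pdyn were the 2 that passed a limit, both higher by share, against 0.099% of all genes. The Cbln1 locus contributed more than its own gene: Gm2694 and Gm27169, both lincRNA genes, were also among the 18, and all 3 lie within 323 kb on chromosome 8 (87203026 to 87525554, GRCm38). Gm27169 was found in 48.4% against 15.1%, and Gm2694 in 85.5% against 54.8%. The 2 other genes of this interval that were considered, Gm27207 (30.6% against 9.04%) and Gm27016 (24.2% against 4.22%), were higher in share without reaching 30 points. Cbln1 lies on the minus strand within the span of Gm2694 on the plus strand, without a shared exon. The use of strand in counting is not given in the sources used here, so intronic reads of the pair cannot be told apart.

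Th, Chrna4, Cacna1i and Gsg1l were also among the 18. Th, the rate-limiting enzyme of catecholamine synthesis, was found in 67.7% (54.7 to 79.1) against 33.1% (26.0 to 40.8). Ddc, which makes the next step to dopamine, had median levels of 347 and 163 CPM, a ratio of 2.13. From summed reads the ratio for Ddc was 1.90, under the 2-fold limit. The other noradrenergic markers did not pass: Dbh was found in 21.0% and 18.7%, Slc6a2 in 17.7% and 13.9%, and Pnmt in 0 of 62 and 3 of 166 nuclei. Summed over the 4 markers, the level ran from 0 through 51.3 to 552 CPM in positive and from 0 through 2.23 to 545 CPM in Cckar-zero nuclei. Of 18 genes of acetylcholine and monoamine synthesis and transport considered, Th and Ddc were the 2 that passed. Of the 18, 8 could be compared by level. Chrna4, a nicotinic receptor subunit, was found in 66.1% against 33.7%, with means 4.88-fold apart, and was the 1 of 14 acetylcholine receptor genes to pass. Over all genes, 0.099% were higher by share and 0.801% by level. Cacna1i, a low-threshold calcium channel, was found in 59.7% against 26.5%. Gsg1l, an auxiliary subunit of AMPA receptors, was found in 96.8% against 66.3%.

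The other called genes have varied roles. Rgs10, which speeds the turn-off of G protein alpha subunits, was found in 72.6% against 39.8%. Tox3, a DNA-binding protein with an HMG box, was found in 59.7% against 24.1%. It was the 1 transcription factor of 97 to be higher, against 0.099% of all genes by share. Fstl1, a secreted glycoprotein, was found in 79.0% against 41.0%, Mfng, which modifies Notch receptors with sugar, in 40.3% against 9.64%, and Adamts18, a secreted protease, in 72.6% against 42.2%. Lemd1 was found in 82.3% against 43.4%, but its exons overlap those of 1 gene on the same strand and of others on the opposite strand. On the lower side, Tagln2, an actin-binding protein, was found in 24.2% (14.2 to 36.7) against 63.9% (56.1 to 71.2), and Tspan18, a tetraspanin of the membrane, in 25.8% (15.5 to 38.5) against 56.0% (48.1 to 63.7). Gsg1l, Adamts18 and Gm2694 fell outside the naming rule and were named after their values were seen.

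The Cck-expressing nuclei carried some of the 18 genes as often as the positive nuclei and others seldom. Fstl1 was found in 79.0% of positive and 93.8% of Cck-expressing nuclei, Sctr in 61.3% and 68.8%, Rgs10 in 72.6% and 75.0%, and Mfng in 40.3% and 50.0%. For Th (18.8%), Cbln1 (12.5%), Pdyn (6.25%) and Prokr1 (0 of 16, which allows up to 18.8%) the shares of Cck-expressing nuclei lay below those of Cckar-zero nuclei or within their interval. With 16 nuclei these intervals are wide, as drawn in the plot of shares in 3 classes. A list of traits of a cluster rich in Cck, chosen on these same nuclei, is no independent evidence of its direction. None of its 8 higher traits passed a limit: the potassium channel gene Kcnk9 came closest, at 59.7% of positive, 81.3% of Cck-expressing and 31.9% of Cckar-zero nuclei, while the sodium channel gene Scn7a was at 46.8%, 81.3% and 38.0%. In positive and Cckar-zero nuclei, Cacna1g was found in 75.8% and 53.6%, Nxph4 in 61.3% and 47.6%, and Gabrg1 in 64.5% and 54.8%. Gabrq was found in 41.9% and 39.2%, Gabre in 17.7% and 15.7%, and Adra2a, on the lower side, in 43.5% and 53.6%. Of 9 lower traits, 1 passed, and on the higher side: Trpc7, a cation channel gated by lipid products of phospholipase C, was found in 93.5% of positive, 31.3% of Cck-expressing and 83.7% of Cckar-zero nuclei. Chrna5 (59.7%, 6.25% and 57.8%) and Nr4a2 (91.9%, 18.8% and 89.8%), in the same order of classes, were at like shares in both Cck-negative classes. Others were lower in positive than in Cckar-zero nuclei without passing a limit on share. Htr2a, a serotonin receptor, was found in 45.2%, 43.8% and 65.1%, in the same order, and its mean level was 3.52-fold lower in positive than in Cckar-zero nuclei. Tbx3, a T-box transcription factor, was found in 50.0%, 18.8% and 64.5%, with a mean 2.28-fold lower, and Ntsr1, a neurotensin receptor, in 30.6%, 12.5% and 42.8%, with a mean 2.55-fold lower. Hoxa5 was found in 48.4% of positive and 47.6% of Cckar-zero nuclei, and Hoxb5 in 83.9% and 73.5%.

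**Figure D2:**
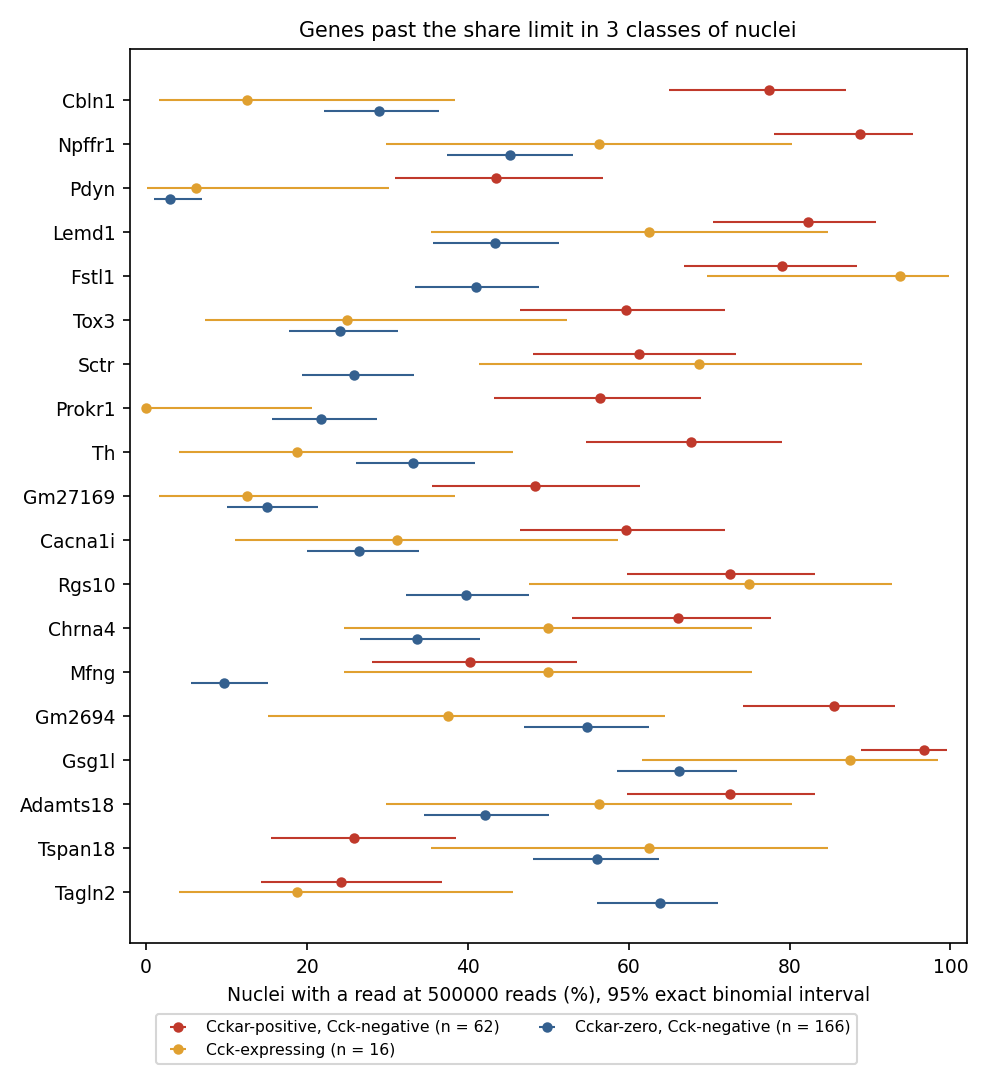
Share of nuclei with at least 1 read after thinning to 500000 reads (x axis, %) for 19 of the 20 genes past the share limit, in Cckar-positive (n = 62), Cck-expressing (n = 16) and Cckar-zero nuclei (n = 166). Points are shares and bars exact binomial 95% intervals. In the Cck-expressing class, which was chosen without regard to Cckar, the points of Fstl1, Sctr, Rgs10 and Mfng lie above those of positive nuclei. Those of Cbln1, Pdyn, Prokr1 and Th in that class lie near or below those of Cckar-zero nuclei.

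Among genes found in nearly all nuclei, levels were compared in place of shares. Some of these differences rested mainly on the positive nuclei with a Pdyn read, as given further on. Of 5245 genes found in at least 80% of both classes, 42 had a median CPM at least 2-fold higher in positive nuclei (0.801%) and 27 at least 2-fold lower (0.515%). A ratio of medians says how the middle nuclei differ and can be far from a ratio of totals: from summed reads in place of medians, 9 and 10 genes passed. Synpr, a protein of synaptic vesicles, had medians of 358 and 52.2 CPM, a ratio of 6.86. Gpc6, a heparan sulphate proteoglycan of the cell surface, had 1415 and 320 CPM, and Tenm3, a teneurin that guides synaptic partner choice, 2100 and 526 CPM. The ratio for Tenm3 was 3.99, and 2.28 without the nuclei numbered 193 to 288. Rgs6, which speeds the turn-off of inhibitory G proteins, had 359 and 103 CPM, Shisa9, an auxiliary subunit of AMPA receptors, 355 and 103 CPM, and Trpc7 150 and 51.6 CPM. Without nuclei with a Pdyn read in either class, the ratio of medians turned to 0.429 for Rgs6 and was 1.21 for Trpc7, under the limit. That of Shisa9, 3.45, came to 2.24 without the nuclei numbered 289 to 384, and that of Rgs6, 3.50, to 5.29 without those numbered 97 to 192. L3mbtl4 (159 and 34.6 CPM) and Arhgap24 (495 and 166 CPM), a brake on Rac, complete the 8 with the highest ratios. From summed reads the ratio was 3.20 for Synpr, 2.11 for Rgs6, 2.35 for Shisa9 and 4.21 for L3mbtl4, and it fell under the 2-fold limit for Gpc6 (1.83), Tenm3 (1.67), Trpc7 (1.84) and Arhgap24 (1.78). Among Gq and calcium signalling genes, 50 were considered, and 29 of them could be compared by level. Ryr2 and Ryr3, the calcium release channels of the endoplasmic reticulum, were higher in median level by 2.27 and 2.44 times (1.88 and 2.05 from summed reads). Rgs6 was higher in level and Rgs10 in share, and none was lower. Over all genes, 0.801% were higher by level and 0.099% by share. The median difference in share over the 50 was 0.573 points.

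Cell adhesion genes moved in both directions, some of them mainly in the positive nuclei with a Pdyn read, as given further on. Of 96 considered, 64 were found in enough nuclei to be compared by level. Against 0.801% and 0.515% of all genes so compared, 6 of the 64 had a higher median (Tenm3, Pcdh9, Ntm, Cdh13, Epha6 and Cntnap5a) and 6 a lower one (Cntn5, Cntn4, Cdh12, Pcdh15, Cdh8 and Lrrc4c). From summed reads none of the 6 higher genes reached 2-fold: Tenm3 1.67, Ntm 1.86, Cdh13 1.84, Epha6 1.54, Cntnap5a 1.53 and Pcdh9 0.885. Of the 6 lower, Cntn5 and Pcdh15 (0.446) did, but Cntn4, Cdh12 (0.537), Lrrc4c (0.653) and Cdh8 (0.910) did not. In the nuclei numbered 97 to 192, Lrrc4c went the other way, with medians of 1246 CPM in positive and 762 CPM in Cckar-zero nuclei. Cdh8 did so in those numbered 289 to 384, at 81.9 and 58.7 CPM. For Pcdh9 the means, 542 CPM in positive and 586 CPM in Cckar-zero nuclei, went the other way, and for Cdh8 they were close, at 102 and 112 CPM. Cntn5, a contactin of the axon surface, showed the largest drop, with medians of 348 and 2488 CPM, 7.16-fold lower. Its level ran from 26.9 to 8752 CPM in positive and from 45.0 to 9984 CPM in Cckar-zero nuclei, so the ranges overlapped while the medians stood apart. Cntn4 had 329 and 1348 CPM, a ratio of 0.244, which was 0.159 without the nuclei numbered 97 to 192, 0.446 without those numbered 289 to 384, and turned to 1.30 without nuclei with a Pdyn read. The other genes with the largest drops were Mgat4c, of a family of sugar-transferring enzymes (484 and 1783 CPM), Igsf21 (50.6 and 167 CPM) and Car10 (46.9 and 137 CPM), both ligands of neurexins, Fam19a2, a secreted peptide (156 and 504 CPM), Cpne4, a copine that binds calcium (107 and 282 CPM), and Ghr (232 and 589 CPM). From summed reads the ratio was 0.391 for Cntn5, Igsf21 0.391, Car10 0.42 and Cpne4 0.465, and it did not reach the limit for Cntn4 (0.520), Mgat4c (0.555), Fam19a2 (0.556) or Ghr (0.538). Of 64 comparisons of the 16 genes with the widest level ratios, 8 per direction, within the 4 stretches of nucleus numbers, 63 kept their direction. The exception was Rgs6 in the nuclei numbered 97 to 192, with medians of 26.4 CPM in positive and 106 CPM in Cckar-zero nuclei. These 16 genes too were chosen on the same nuclei, so the shared direction is no independent support.

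**Figure D3:**
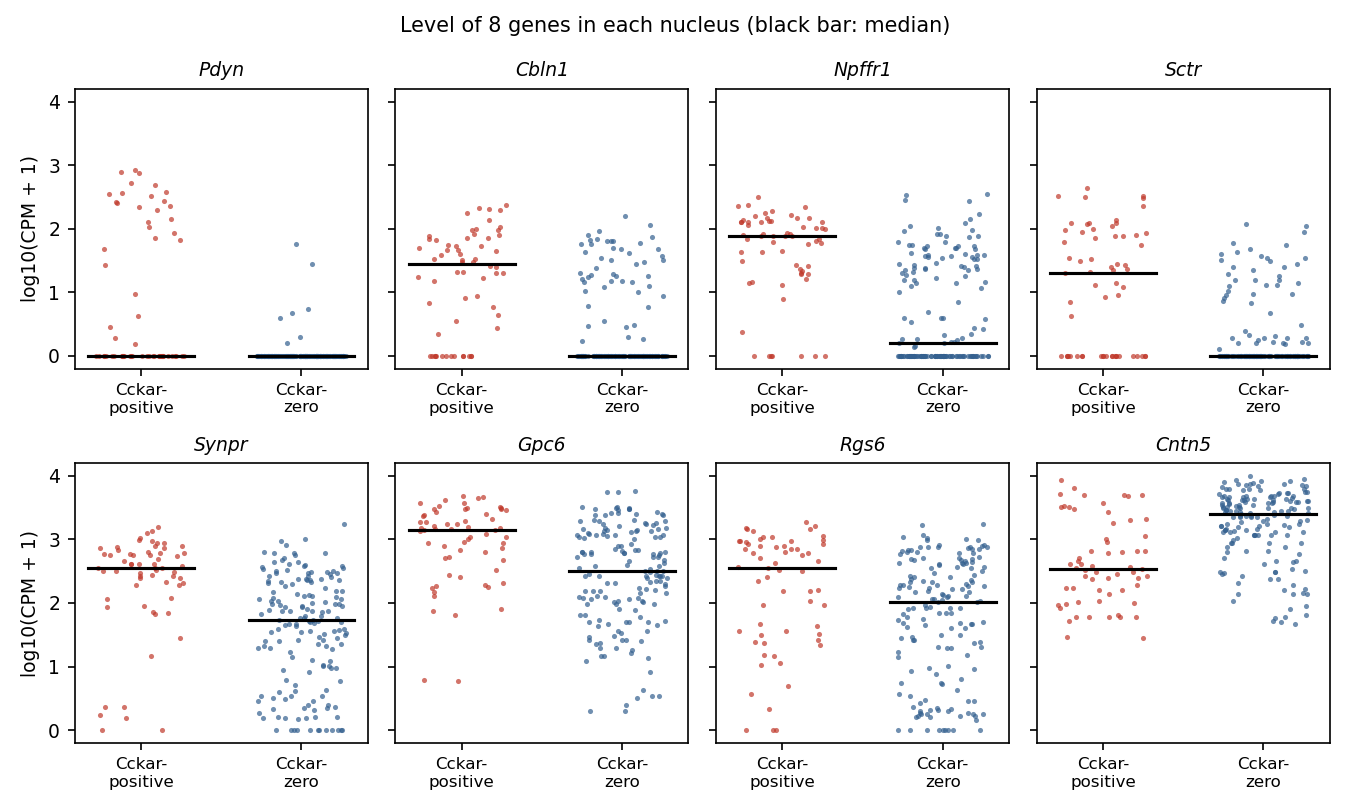
Level of 8 genes in each nucleus, as log10(CPM + 1), in Cckar-positive (left, n = 62) and Cckar-zero nuclei (right, n = 166). Each point is 1 nucleus and the black bar is the median. Pdyn is at 0 in most nuclei of both classes but reaches 854 CPM in positive nuclei, whereas the median of Cntn5 is 348 CPM in positive and 2488 CPM in Cckar-zero nuclei.

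In several gene groups no member passed a limit: 60 potassium channel genes, 20 receptors for GABA and glycine, 5 opioid and cannabinoid receptors, 20 monoamine receptors, 10 purine receptors, 11 immediate early genes, 14 axon injury genes, 16 interferon response genes and 30 trophic factor and cytokine receptors. Lists of these sizes hold few or no called genes at the shares called among all genes, so nothing is read from these zeros, and of the opioid and cannabinoid receptor, monoamine receptor and immediate early lists 0 genes could be compared by level. In the 61 sodium, calcium and cation channel genes, Cacna1i was higher by share, Trpc7 and Trpm3 by level, and none was lower. Of the 61, 31 could be compared by level. Grin2a and Grm5 were the 2 of 24 glutamate receptor genes to pass, both higher in level, where 17 could be compared. Ebf1 was the 1 transcription factor to be lower, by level, where 25 could be compared. Over all genes, 0.099% were higher by share, and 0.801% were higher and 0.515% lower by level. From summed reads the ratios did not reach 2-fold: 1.84 for Trpc7, 1.20 for Trpm3, 1.69 for Grin2a, 1.31 for Grm5 and 0.659 for Ebf1. In the nuclei numbered 1 to 96, Grm5 went the other way, with medians of 31.2 CPM in positive and 42.0 CPM in Cckar-zero nuclei. Of 15 peptide processing genes, 13 could be compared by level. Pcsk2, an enzyme that cuts peptide precursors such as prodynorphin, was the 1 to pass, with medians of 466 and 202 CPM. From summed reads its ratio was 1.74, under the limit, and antisense genes overlap its exons. Nos1, the neuronal nitric oxide synthase, was at 88.7% and 92.8%, and Chat itself had medians of 240 and 185 CPM.

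The 62 nuclei were not uniform. Because Pdyn was present in some and absent in others, they were divided, after the values were seen, into 28 with a Pdyn read and 34 without. Under the same limits, 50 of 19285 genes were higher by share with Pdyn (0.259%) and 81 were lower (0.42%). By level, 85 of 5111 were higher (1.66%) and 140 were lower (2.74%). A fixed limit is passed more easily by sampling with 28 and 34 nuclei than with 62 and 166. A division of the same nuclei at the median of Cckar gave 39 higher and 67 lower genes by share. The counts alone therefore do not measure how far the class is from uniform. Penk, the gene of the enkephalin precursor, had reads in 16 of 28 nuclei with Pdyn and 2 of 34 without, and in 19 of 166 Cckar-zero nuclei. Hrh3, the inhibitory histamine receptor, was found in 89.3% with Pdyn (71.8 to 97.7), 35.3% without (19.7 to 53.5) and 35.5% of Cckar-zero nuclei. Lepr, the leptin receptor, was found in 89.3%, 41.2% and 61.4% in the same order, so that it stood above Cckar-zero nuclei with Pdyn and below them without, and the class as a whole, at 62.9%, did not differ from them by the limit. Isl1, a transcription factor of motor neurons, followed the same order at 67.9%, 32.4% and 21.7%, and Nkx6-2, another, at 64.3%, 23.5% and 19.3%.

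Other genes were rarer with Pdyn. Chrnb4, a nicotinic subunit of autonomic neurons, was found in 17.9% of nuclei with Pdyn (6.06 to 36.9), 70.6% without (52.5 to 84.9) and 65.7% of Cckar-zero nuclei. Mc4r, a melanocortin receptor known for its part in appetite and autonomic output, was found in 17.9%, 61.8% and 41.0%, and Adra2a, an inhibitory adrenergic receptor, in 21.4%, 61.8% and 53.6%. Hcrtr1, an orexin receptor, was found in 28.6%, 58.8% and 47.6%. Tagln2 had a read in 1 of 28 nuclei with Pdyn and was found in 41.2% without. Differences between 28 and 34 nuclei rest on fewer nuclei than those between the classes, and the intervals are wider accordingly.

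Several differences from Cckar-zero nuclei were carried mainly by the nuclei with Pdyn. Sctr was found in 85.7% with Pdyn, 41.2% without and 25.9% of Cckar-zero nuclei, Prokr1 in 78.6%, 38.2% and 21.7%, and Cacna1i in 89.3%, 35.3% and 26.5%. The mean level of Rgs6 was 780 CPM with Pdyn and 279 CPM without, and that of Cntn4 360 and 1597 CPM. Other genes called by level followed the division. With Pdyn, without it and in Cckar-zero nuclei, means were 338, 1952 and 2194 CPM for Mgat4c and 107, 600 and 645 CPM for Fam19a2. They were 618, 2102 and 2138 CPM for Lrrc4c, 1659, 709 and 669 CPM for Grin2a, and 1112, 412 and 336 CPM for Ryr3. Not all did so: Ntm had 856, 858 and 449 CPM, and Tenm3 2097, 2445 and 1305 CPM. When nuclei with a Pdyn read were left out of both classes, the ratio of medians of Cntn5 was still lower at 0.311, and that of Gpc6 still higher at 2.08, against 0.14 and 4.42 in the whole classes. Counts of genes past the share limit became 4 higher and 4 lower, of which 1 and 0 were among the original 18 and 2.

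Other differences were present with and without Pdyn. Cbln1 was found in 92.9% with Pdyn (76.5 to 99.1), 64.7% without (46.5 to 80.3) and 28.9% of Cckar-zero nuclei, and Npffr1 in 100% (87.7 to 100), 79.4% (62.1 to 91.3) and 45.2%. These 2 still passed both limits in the 34 nuclei without Pdyn set against all 166 Cckar-zero nuclei. Th was found in 75.0%, 61.8% and 33.1%, Fstl1 in 82.1%, 76.5% and 41.0%, and Tox3 in 67.9%, 52.9% and 24.1%. All 19 genes other than Pdyn kept their direction in the 34 nuclei, which are part of the class they were chosen on. Tspan18 was about equally rare with and without Pdyn, at 25.0% and 26.5%, against 56.0% of Cckar-zero nuclei.

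**Figure D4:**
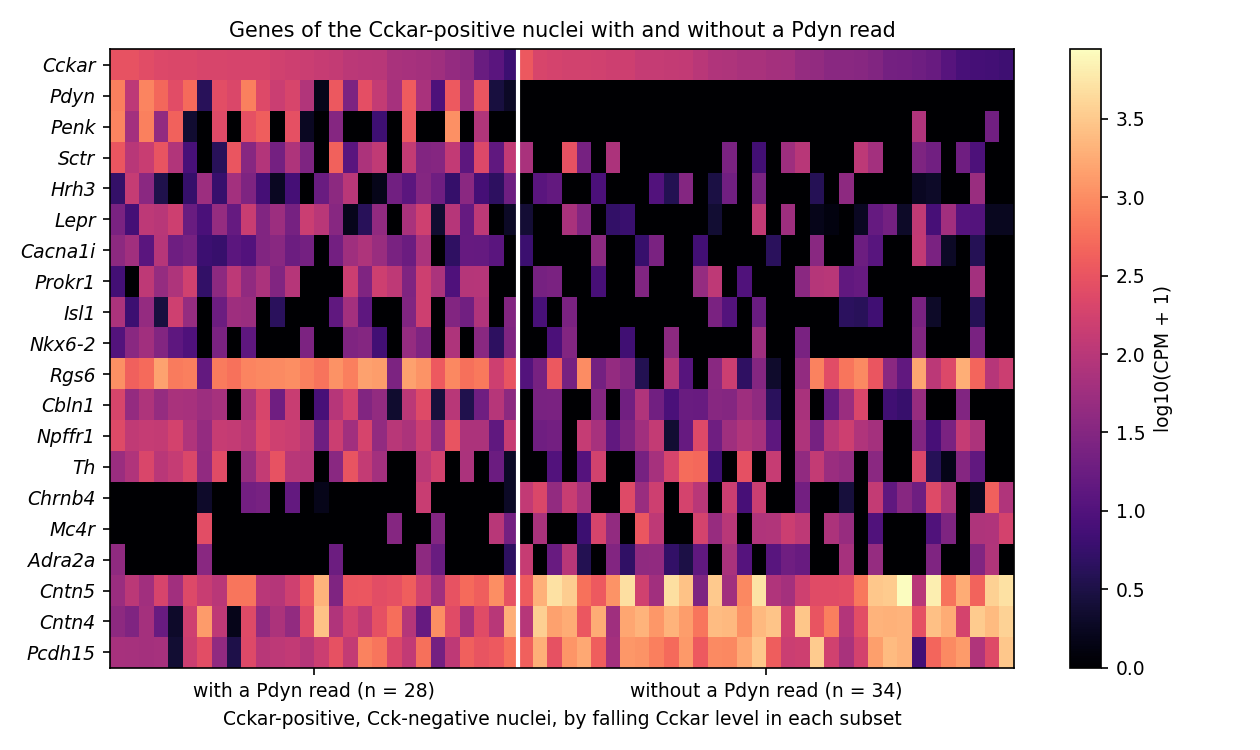
Level of 20 genes (rows) in each of the 62 Cckar-positive nuclei (columns), as log10(CPM + 1). Nuclei with a Pdyn read (n = 28) are left of the white line and those without (n = 34) right of it, each set ordered by falling Cckar. Sctr, Hrh3, Lepr and Cacna1i are filled mainly on the left and Chrnb4, Mc4r and Adra2a mainly on the right, while Cbln1, Npffr1 and Th run across both.

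The level of Cckar went with this division in part. Nuclei with Pdyn had a median of 140 Cckar CPM, with a range of 5.54 to 303 CPM, and those without had 66.5 CPM, with a range of 5.75 to 352.0 CPM. Divided at the class median of Cckar, 18 of the 31 nuclei above it had a Pdyn read, as did 10 of the 31 at or below it. Between these sets, again of few nuclei, 39 of 18479 genes were higher by share (0.211%) and 67 lower (0.363%). By level, 160 of 5267 were higher (3.04%) and 120 lower (2.28%). Of the genes given here Mc4r alone differed in share by 30 points, at 25.8% above and 58.1% below the median. Rgs10 was found in 87.1% above and 58.1% below the median, Lemd1 in 93.5% and 71.0%, and Fstl1 in 90.3% and 67.7%, all under the limit. Cckbr was found in 38.7% and 48.4%.

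Clusters built without Cckar, Cck or any listed gene placed the positive nuclei unevenly. Called genes outside the lists, such as Sctr, Prokr1, Lemd1 and Synpr, were not held out. The clusters are therefore not independent of the differences given above. Of 11 clusters over 316 nuclei with at least 1000 genes, cluster 1, with 49 nuclei, held 29 of the 62 positive nuclei (46.8%) and 11 of the 166 Cckar-zero nuclei (6.63%). It also held 21 of the 28 positive nuclei with Pdyn. The remaining 33 positive nuclei lay in 9 other clusters. Cluster 11, with 12 nuclei, held 7 of them (11.3% of the positive nuclei) and 2 Cckar-zero nuclei (1.20%), and 1 of the 7 had a Pdyn read. Cluster 5 also held 7, beside 19 Cckar-zero nuclei (11.3% and 11.4%). Cluster 7, where the somatic motor markers averaged 55.6% of nuclei against 25.6% for the visceral ones, held none of the positive nuclei. It held 7 Cckar-zero nuclei (4.22%), so the comparison class includes some nuclei of this somatic-like cluster. Cluster 8, which held 10 of the 16 Cck-expressing nuclei, had 3 positive and 0 Cckar-zero nuclei.

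**Figure D5:**
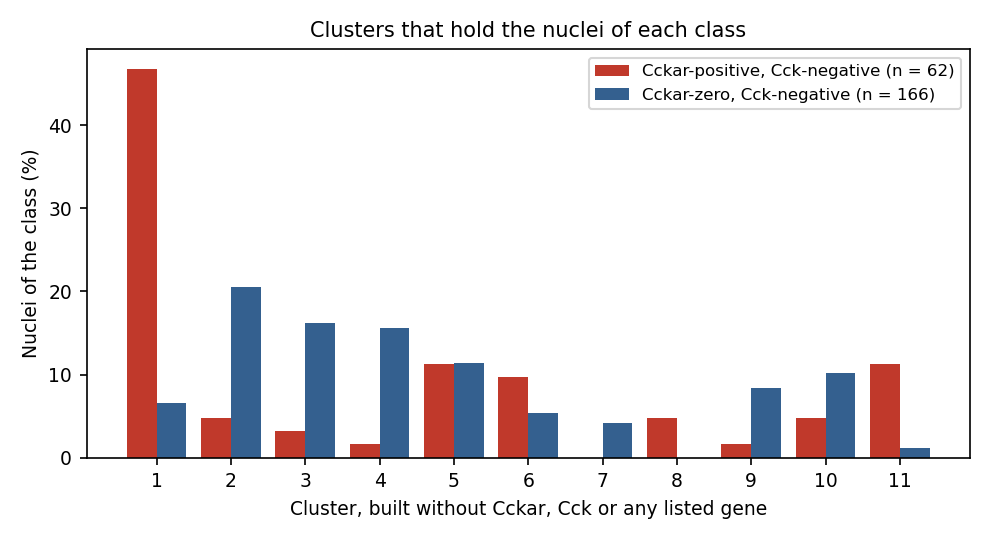
Percent of the Cckar-positive (red, n = 62) and Cckar-zero nuclei (blue, n = 166) in each of 11 clusters built without Cckar, Cck or any listed gene. Called genes outside the lists were not held out. Cluster 1 holds 46.8% of the positive and 6.63% of the Cckar-zero nuclei, cluster 11 holds 11.3% and 1.20%, and cluster 5 holds 11.3% and 11.4%.

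The genes held out of the clustering show which differences remain within cluster 1. Pdyn was found in 69.0% of the 29 positive nuclei of the cluster and in 0 of its 11 Cckar-zero nuclei, which allows up to 27.3%, and Lepr in 79.3% and 18.2%. Cbln1 was found in 82.8% and 45.5% there, and in 72.7% of positive and 27.7% of Cckar-zero nuclei elsewhere. Npffr1 was found in 100% and 81.8% within the cluster and in 78.8% and 42.6% elsewhere. Th was at like shares within it, 82.8% and 81.8%, and was found in 54.5% and 29.7% elsewhere. With 11 Cckar-zero nuclei in the cluster, its second share of each pair is coarse.

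Windows at the start of called genes were read from RefSeq (GRCm38.p6), from 250 bases before to 50 bases after the start, and 13 of the 20 genes called by share had one. Those of 3 genes are printed because they belong to the peptide gene that divides the class and to a receptor and an enzyme gene found on both sides of that division. They are Pdyn (chr2:129699889-129700188, minus strand), Npffr1 (chr10:61595045-61595344, plus strand) and Th (chr7:142899946-142900245, minus strand), each 5′ to 3′ with motif matches in capitals.
Pdyn: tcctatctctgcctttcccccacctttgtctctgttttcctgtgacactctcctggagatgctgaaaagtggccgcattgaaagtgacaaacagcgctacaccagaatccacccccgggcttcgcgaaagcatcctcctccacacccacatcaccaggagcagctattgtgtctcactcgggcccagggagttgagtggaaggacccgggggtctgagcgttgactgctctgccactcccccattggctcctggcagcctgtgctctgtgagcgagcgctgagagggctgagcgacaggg
Npffr1: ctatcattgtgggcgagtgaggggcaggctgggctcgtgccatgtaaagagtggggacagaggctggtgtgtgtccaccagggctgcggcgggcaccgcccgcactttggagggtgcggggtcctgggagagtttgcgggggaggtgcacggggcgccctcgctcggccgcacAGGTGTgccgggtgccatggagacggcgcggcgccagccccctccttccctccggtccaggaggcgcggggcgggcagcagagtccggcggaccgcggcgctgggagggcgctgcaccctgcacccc
Th: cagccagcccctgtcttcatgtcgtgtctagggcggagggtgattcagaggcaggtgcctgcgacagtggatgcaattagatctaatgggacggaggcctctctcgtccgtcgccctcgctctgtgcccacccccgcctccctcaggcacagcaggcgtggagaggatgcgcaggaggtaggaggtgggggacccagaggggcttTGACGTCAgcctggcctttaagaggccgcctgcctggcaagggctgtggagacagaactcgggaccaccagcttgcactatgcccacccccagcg
Motifs were searched on both strands. The cAMP response element TGACGTCA was in the window of Th, 1 of the 13 genes, and in 1.79% of all 32851 windows. The T-box half-site AGGTGT was in the windows of Npffr1 and Cacna1i, and in 13.7% of all windows. The windows of Pdyn and Lemd1 held TGACAG, a core bound by Meis proteins, which 19.2% of all windows hold; the match for Pdyn lies in a second RefSeq window that is not printed. The homeodomain core TAATTA was found for Lemd1, and in 5.29% of all windows. These matches are letters in a window and not shown to be sites.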

How the data were processed

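Nuclei were sorted for mCherry and a DNA dye, 1 per well, and sequenced by Smart-seq2, which carries no molecular identifiers, after 22 PCR cycles, per the labels' protocols. Those protocols also name sections around the SCN, an abbreviation they do not explain. The deposited table holds whole-number read counts, not normalised, for 29779 genes in 383 nuclei. Per the submitters' processing notes, bcl2fastq, STAR, Picard, edgeR and Seurat version 3 were named, with build GRCm38; annotation, counting mode and strand use are not given in the sources used here. Reads per nucleus ran from 159 to 4699420 (median 1293019).

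From these counts, CPM, shares after random thinning and clusters were computed (Python 3.11.15, numpy 2.4.6, scipy 1.17.1, pandas 2.3.3, leidenalg 0.10.2). Genes found in at least 10% of either class were considered, without Cckar and Cck. One nucleus is not a replicate, so no test was run. Shares have exact Clopper-Pearson 95% intervals. Amplified reads are not independent molecules, so intervals cover counting error only. No doublet caller was run. Coordinates come from GENCODE M21, to which 28340 symbols matched. The scripts were tested on simulated data.

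The cholinergic genes, Cckbr, Tbx20, Nos1, Npy2r and traits of Cck nuclei were always named, with the 15 widest share differences, the 8 widest level ratios per direction and up to 6 called genes per list. Genes named in the division by Pdyn were chosen after their values were seen. Members and lists were chosen with earlier results of these data known. Alternatives covered depth, limits, scaling, Cckar cut-offs, clusters and stretches of nuclei. One gene called by share and 1 marker are not reported here.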

Additional observations from a re-analysis of the deposited data

Results flagged for a closer look

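Nuclei that passed the limits on reads, genes and Chat or Slc5a7 but had no Tbx20 read were in neither class. Of these 29 nuclei, 6 had Cckar at 5 CPM or more, which is 20.7% (exact binomial 95% interval 7.99 to 39.7). The share lies above the 10.3% that a count of 0 allows, but its interval reaches below that value. Among the 265 nuclei with a Tbx20 read, 77 were at that level (29.1%, 23.7 to 34.9). Cckar was therefore also counted in nuclei without a Tbx20 read. A missing read does not show that Tbx20 is absent, and whether the 29 are vagal motor neurons was not tested.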

How the results depend on the processing

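No paired analysis was possible because all nuclei form 1 group and no result comes from a test. Against 18 higher and 2 lower genes by share, no thinning gave 10 and 1, a limit of 20 points 52 and 21, and a limit of 40 points 3 and 0. Leaving out nuclei numbered 1 to 96 gave 28 and 5; without 193 to 288 and without 289 to 384 the lower genes numbered 4 and 5. Positive nuclei from 20 and from 50 CPM of Cckar gave 6 and 10 lower genes. By level, against 42 higher and 27 lower genes, 1000000 reads gave 69 and 50, no thinning 84 and 54, summed reads 9 and 10, and positive nuclei from 50 CPM 55 lower genes. Alternatives chosen after seeing the data left out nuclei with a Pdyn read, for 4 higher and 4 lower genes by share, and median ratios of 0.429 for Rgs6 and 1.30 for Cntn4; the shallower column of near-identical pairs, for 1 lower gene; and nuclei similar to another, for 5 lower genes. For other settings the cause was not tested. For 17 named genes called by share the difference changed sign in 0 of 272 values. These genes were chosen for a wide difference in the same nuclei, so a change of sign was unlikely from the start. The difference of Pdyn was 0 without nuclei with a Pdyn read. For 55 named genes not called the difference changed sign in 66 of 880. With size factors in place of CPM, the ratio of means shifted by a median of 0.00076 on the log2 scale over the genes compared by level. This middle value does not cover the shifts of single genes. With 1 pooled sample, variation between mice is not covered.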

Other observations

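Some genes came close to the limits and were chosen after their values were seen. Cartpt, the gene of the peptide CART, was found in 17.7% of positive and 47.0% of Cckar-zero nuclei, with a mean 3.82-fold lower, and Slc12a7, a potassium and chloride cotransporter, in 27.4% and 56.0%. Kcnk13, a background potassium channel, was found in 96.8% and 69.3%, and Cbln2, a relative of Cbln1, in 85.5% and 57.2%. Gria3, an AMPA receptor subunit, differed by 32.1 points, at 83.9% and 51.8%, but its mean level by 1.45-fold, under the limit. Necab2, a calcium-binding protein, was found in 40.3% and 11.4%.

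Among receptors for hormones of feeding, Npy4r, which binds pancreatic polypeptide, was found in 48.4% of positive, 25.0% of Cck-expressing and 29.5% of Cckar-zero nuclei, but its mean level was 30.1 CPM in positive and 44.5 CPM in Cckar-zero nuclei. Lepr was found in 62.9%, 56.3% and 61.4%, in the same order. Of the 16 Cck-negative nuclei with Cckar below 5 CPM, 5 had a Pdyn read.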
